A study of Mus musculus with 6 samples.

Results

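The genes described here are 10 markers used to recognise the quiescent hepatic stellate cell: Reln, Des, Rgs5, Ecm1, Hgf, Cygb, Colec11, Vipr1, Pth1r and Angptl6. They were taken by symbol from a table of 35999 gene symbols, and all 10 were present and passed the filter on low values that 14373 genes passed. The libraries came from primary hepatic stellate cells of mouse liver, 2 on each of days 1, 4 and 7. Replicates carry the numbers 2 and 3 on day 1 and the numbers 1 and 2 on days 4 and 7. Strain, genotype, age and treatment are not in the labels, nor is the event from which the days were counted. Nothing states that same-day libraries had different animals or cultures as their source, so each p-value reflects library-to-library spread that may be purely technical.

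Stellate cells sit between the sinusoidal endothelium and the hepatocytes, store vitamin A as retinyl esters, and wrap the sinusoid as its pericytes. In injured liver or on plastic they turn into contractile, matrix-producing myofibroblasts, and genes of the resting cell are commonly said to be lost on the way. The 10 genes have unlike jobs: some encode secreted proteins (reelin, HGF, ECM1, the collectin COLEC11 and ANGPTL6), some encode receptors or brakes on receptor signalling (PTH1R, VIPR1 and RGS5), and the others encode an intermediate filament protein (desmin) and an oxygen-binding globin (cytoglobin).

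The 10 genes did not take one course. Desmin RNA rose and stayed high, reelin, cytoglobin and PTH1R RNA rose to day 4, and RGS5, HGF and VIPR1 RNA were lower on day 7 than on day 1. The desmin and PTH1R calls held under every alternative that tested them. Those of reelin, cytoglobin, RGS5, HGF and VIPR1 were each lost under some alternatives. Of the 10 genes, 6 had their highest daily mean on day 4, 2 on day 1 (Colec11 and Vipr1) and 2 on day 7 (Ecm1 and Angptl6). Over all tested genes, the highest mean fell on day 4 for 33.3%, on day 1 for 39.8% and on day 7 for 26.9%. Calls on day 4 against day 1 covered 4 of the 10 genes, and 36.6% of tested genes. For day 7 against day 1 they covered 4 of 10, of which 3 were lower, and 41.4% of tested genes, so both shares were near those of all genes. In the reported fit no marker was called lower on day 4 than on day 1. Colec11 was called lower after rescaling without predicted gene models, where 2 markers were called higher. Ecm1 was lower on day 4 by 0.70 on the log2 scale when day 1 replicate 2 was left out.

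The promoters of Des, Reln and Rgs5 are shown because these genes took different courses: Des rose and stayed up, Reln was highest on day 4, and Rgs5 fell. Each window runs from 250 bases before to 50 after the RefSeq start on GRCm38.p6, 5′ to 3′ on the gene's strand, and capitals mark GC boxes (GGGCGG on either strand) and the E-box CAGCTG. Those were 2 of 4 motifs searched on both strands. GGGCGG occurred in 35.7% of all 32851 promoter windows of this length and CAGCTG in 16.3%. The TATA box TATAAA (13.6% of windows) and the CArG box (1.63%) matched none of these 3.
Des promoter, chr1:75360042-75360341, plus strand: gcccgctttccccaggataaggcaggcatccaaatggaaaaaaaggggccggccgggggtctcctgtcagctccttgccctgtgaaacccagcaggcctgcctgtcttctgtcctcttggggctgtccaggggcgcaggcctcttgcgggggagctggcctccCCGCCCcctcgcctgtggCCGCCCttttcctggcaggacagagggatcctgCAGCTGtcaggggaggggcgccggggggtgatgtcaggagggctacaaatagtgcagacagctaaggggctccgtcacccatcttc
Reln promoter, chr5:22344656-22344955, minus strand: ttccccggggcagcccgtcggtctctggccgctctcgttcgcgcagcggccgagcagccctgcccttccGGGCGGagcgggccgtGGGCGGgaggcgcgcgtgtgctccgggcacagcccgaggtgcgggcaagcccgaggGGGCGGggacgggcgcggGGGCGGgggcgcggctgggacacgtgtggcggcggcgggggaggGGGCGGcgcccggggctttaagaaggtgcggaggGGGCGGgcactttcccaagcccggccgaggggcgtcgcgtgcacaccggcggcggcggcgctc
Rgs5 promoter, chr1:169655251-169655550, plus strand: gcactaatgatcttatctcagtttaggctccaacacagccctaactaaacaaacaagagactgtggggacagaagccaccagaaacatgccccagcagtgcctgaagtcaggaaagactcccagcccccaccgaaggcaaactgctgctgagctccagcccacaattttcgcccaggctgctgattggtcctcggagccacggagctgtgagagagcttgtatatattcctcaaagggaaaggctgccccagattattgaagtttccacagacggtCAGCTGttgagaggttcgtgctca

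The Reln window held 47 CpG dinucleotides and 6 GC boxes, and 98.6% of all windows held fewer CpGs. The Des window held 11 CpGs, 2 GC boxes and 1 CAGCTG, and the Rgs5 window held 6 CpGs, no GC box and 1 CAGCTG. The median window held 7 CpGs. Of the other markers, Vipr1 had a window with 35 CpGs and 4 GC boxes, and 2 of the 3 Pth1r windows held 23 and 27 CpGs with 1 and 4 GC boxes. Ecm1 was the only marker with a TATAAA match, in a window with 2 CpGs. RefSeq windows were matched for 9 of the 10 genes.

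The values are TPM, a transcript abundance corrected for length and scaled to a fixed total per library, which can be compared between genes of a library. The markers spanned a wide range. Hgf and Ecm1 were the most abundant on every day, and together they made up 56.5% to 80.6% of the summed TPM of the 10 genes. Cygb, Vipr1, Pth1r and Angptl6 stayed under 6 TPM in every library, and Vipr1 and Cygb were near or below 1 TPM on days 1 and 7. The order of means at day 1 was Hgf (61.8 TPM), Ecm1 (61.3), Reln (11.1), Rgs5 (6.40), Des (6.19), Colec11 (4.18), Angptl6 (2.46), Pth1r (1.58), Vipr1 and Cygb (each 1.14). Hgf and Ecm1, Rgs5 and Des, and Vipr1 and Cygb overlapped with each other on that day. By day 4 Des stood below only Hgf and Ecm1 with 44.1 TPM and Pth1r stood above Colec11 with 5.36 TPM, while Vipr1 was last with 0.872 TPM. On day 7 Ecm1 led with 75.3 TPM, and Colec11, Pth1r and Angptl6 followed each other with overlapping libraries between 2.28 and 2.87 TPM.

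The make-up of the libraries bears on every comparison with day 1. Predicted gene models (symbols of Gm and a number) held 19.9% and 29.3% of the TPM total in the day 1 libraries, against 3.06% to 3.14% in the other 4, and a fixed total leaves that much less for all other genes. Stellate genes were present, but the summed TPM of a list depends on the genes chosen and does not measure the share of a cell type. The 28 other genes of stellate identity summed to 2764.3 and 2147.8 TPM on day 1 and 1693.6 to 2099.8 TPM later. That list includes genes of low level beside abundant ones such as Dcn. Lrat, the retinol esterifying enzyme that defines the cell, had 0.494 ± 0.004 TPM on day 1 (SD, n = 2, as throughout) and 5.99 ± 0.50 TPM on day 4. The stellate markers Gfap and Ngfr were below 1.2 TPM in every library. The 15 macrophage and Kupffer cell markers summed to 11069 to 13976 TPM on day 1 and 26433 to 28760 TPM later, against 142.7 to 203.3 TPM for the 10 stellate markers. The 15 endothelial markers summed to 2460.1 to 2768.5 TPM in all libraries, and the day 7 libraries lay lowest. The part of these other cells in the results was not tested, and in bulk RNA fewer cells of a type and less RNA per cell cannot be told apart.

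**Figure D1:**
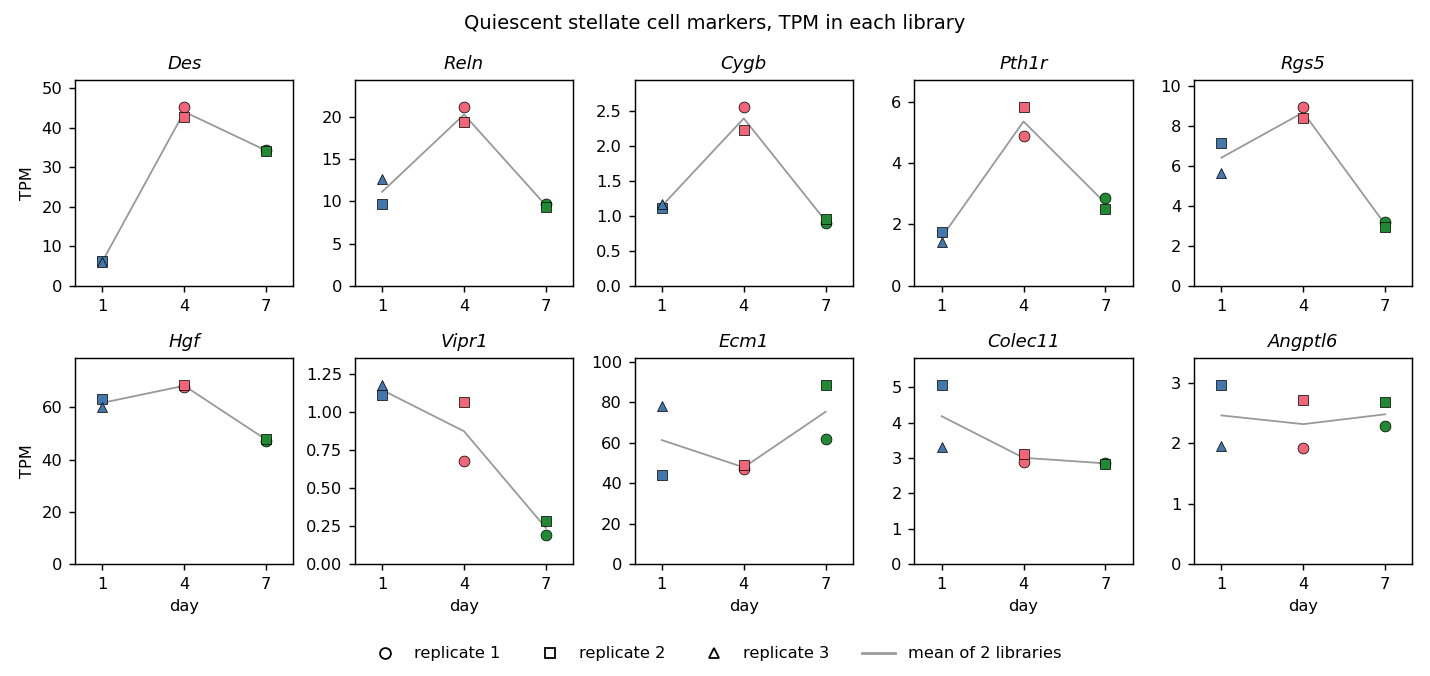
TPM of each of the 10 markers (vertical axes, from 0) on days 1, 4 and 7 (horizontal axes). Points are single libraries, with shape giving the replicate number, and grey lines join the means of the 2 libraries of a day. Reln, Cygb, Pth1r, Rgs5, Hgf and Des have their highest mean on day 4, and Des stays high on day 7. Ecm1 spreads widely on days 1 and 7, and Angptl6 spreads within each day.

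Des rose most. Desmin is the muscle-type intermediate filament protein by which rodent stellate cells are stained. Its level was 6.25 and 6.13 TPM on day 1, 45.4 and 42.8 TPM on day 4, and 34.3 and 34.2 TPM on day 7. The libraries of the 3 days did not overlap, and the day 7 libraries lay nearer to day 4 than to day 1. The day 4 mean was 7.12-fold and the day 7 mean 5.53-fold the day 1 mean. On the scale of log2(TPM + 1), used for all tests, the change to day 4 was 2.65 (SE 0.10, limma adjusted p = 3.7e-05) and that to day 7 was 2.29 (SE 0.10, limma adjusted p = 4.3e-05). From day 4 to day 7 the difference was -0.35 (95% interval -0.61 to -0.10, limma adjusted p = 0.264), which missed the threshold. In rank, Des moved from percentile 32.8 to 34.5 of the tested genes on day 1 to 75.7 to 76.6 on day 4.

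Reln, Pth1r and Cygb also rose from day 1 to day 4. Reelin is a large secreted glycoprotein, best known for guiding neurons, that signals through the lipoprotein receptors VLDLR and ApoER2. Its level was 9.67 and 12.6 TPM on day 1, 21.2 and 19.4 TPM on day 4, and 9.68 and 9.36 TPM on day 7. Day 4 stood clear of both other days, while days 1 and 7 overlapped. The day 4 mean was 1.82-fold the day 1 mean (log2 change 0.82, SE 0.16, limma adjusted p = 0.00986). Leaving out day 4 replicate 1 or 2 raised the adjusted p to 0.0766 or 0.0549, and the call was also lost after rescaling without the predicted models (log2 change 0.48, adjusted p = 0.094). The day 7 minus day 4 difference was -1.02 (95% interval -1.40 to -0.64), with limma adjusted p = 0.0685 over all 6 libraries and 0.0165 or 0.0156 without day 1 replicate 2 or 3. Between days 1 and 7 it was -0.20 (95% interval -0.58 to 0.18, limma adjusted p = 0.343), or -0.37 and adjusted p = 0.0466 without day 1 replicate 2.

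PTH1R is the receptor for parathyroid hormone and its related peptide. Pth1r had 1.76 and 1.41 TPM on day 1, 4.87 and 5.84 TPM on day 4, and 2.87 and 2.51 TPM on day 7. The 3 days did not overlap, and day 7 lay between the other two. The day 4 mean was 3.38-fold the day 1 mean (log2 change 1.30, SE 0.18, limma adjusted p = 0.00324), and this call held under every alternative in which Pth1r was tested. From day 4 to day 7 Pth1r changed by -0.78 (95% interval -1.22 to -0.34, limma adjusted p = 0.171), and day 7 against day 1 gave 0.52 (95% interval 0.08 to 0.96, limma adjusted p = 0.0632).

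Cytoglobin binds oxygen and nitric oxide and was first found in stellate cells. Cygb had 1.11 and 1.17 TPM on day 1, 2.56 and 2.22 TPM on day 4, and 0.904 and 0.948 TPM on day 7. Again the 3 days did not overlap and day 4 was highest. The day 4 mean was 2.10-fold the day 1 mean (log2 change 0.66, SE 0.19, limma adjusted p = 0.0368), a call that was lost on leaving out any of the 6 libraries. Those adjusted p-values were 0.0627 and 0.0713 without day 1 replicate 2 or 3, 0.172 and 0.117 without day 4 replicate 1 or 2, and 0.0732 and 0.0735 without day 7 replicate 1 or 2. Median-ratio scaling (adjusted p = 0.0564) and rescaling without the predicted models (adjusted p = 0.0859) ended it too. From day 4 to day 7 Cygb changed by -0.81 (95% interval -1.27 to -0.36, limma adjusted p = 0.17).

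By limma, 4 of the 10 markers were called higher on day 4 than on day 1 and none lower, against 25% of tested genes higher and 11.6% lower (36.6% in either direction). Without adjustment the same 4 had a p under 0.05, against 48.3% of tested genes. Libraries of the 2 days did not overlap for 8 markers, against 70.9% of tested genes, with 6 markers higher and 2 lower on day 4 against 43% and 27.8%. The median log2 change of the 10 was 0.27, and that of all tested genes 0.11. Without the predicted models 2 rose (Des and Pth1r) and Colec11 fell, with a marker median of -0.07 against -0.19 for all genes. In that fit fewer of all tested genes were also called higher, and more lower, than in the reported one. Leaving out day 4 replicate 1 or 2 gave 2 calls each.

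Rgs5 fell after day 4. RGS5 shortens signalling from G protein-coupled receptors by speeding the GTPase of G alpha subunits, and its RNA is a usual marker of pericytes. Its level was 7.14 and 5.65 TPM on day 1, 8.95 and 8.37 TPM on day 4, and 3.2 and 2.94 TPM on day 7. Day 7 lay below both other days, whose libraries did not overlap either. The day 4 mean was 2.82-fold the day 7 mean (log2 change -1.25, SE 0.16, limma adjusted p = 0.0496), just under the threshold. The call was lost without day 4 replicate 1 or 2 (adjusted p = 0.393 and 0.355) and without day 7 replicate 1 or 2 (adjusted p = 0.401 and 0.451). It was also lost with pseudocounts of 0.1 and 0.5 (adjusted p = 0.0526 and 0.0501), with no filter (0.138), and after median-ratio scaling (0.0552) or quantile normalization (0.0666). Between days 1 and 7 the difference was -0.86 (SE 0.16, limma adjusted p = 0.00894), or 0.0526 and 0.0665 without day 7 replicate 1 or 2. Day 4 against day 1 gave 0.39 (limma adjusted p = 0.107), or 0.54 and adjusted p = 0.0371 without day 1 replicate 2.

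Hgf and Vipr1 were also lower on day 7 than on day 1. Hepatocyte growth factor is the main mitogen that stellate cells send to hepatocytes. Hgf had 63.4 and 60.2 TPM on day 1, 68.0 and 68.6 TPM on day 4, and 47.3 and 48.0 TPM on day 7. The day 7 libraries lay below the other 4, and days 1 and 4 differed little. The day 1 mean was 1.30-fold the day 7 mean (log2 change -0.37, SE 0.09, limma adjusted p = 0.0242). Without day 4 replicate 1 or 2 the adjusted p was 0.076 each, and without day 7 replicate 1 or 2 it was 0.133 and 0.118. From day 4 to day 7 Hgf changed by -0.51 (95% interval -0.74 to -0.28, limma adjusted p = 0.109), or 0.0225 and 0.022 without day 1 replicate 2 or 3. Its day 4 against day 1 difference of 0.14 became -0.22 without the predicted models, and neither passed (adjusted p = 0.268 and 0.0998).

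VIPR1 is a receptor for vasoactive intestinal peptide and for PACAP. Vipr1 had 1.11 and 1.18 TPM on day 1, 0.678 and 1.07 TPM on day 4, and 0.194 and 0.282 TPM on day 7. It was the least abundant marker on days 4 and 7, and the days did not overlap. The day 1 mean was 4.81-fold the day 7 mean, which the pseudocount reduced to a log2 change of -0.79 (SE 0.22, limma adjusted p = 0.0335). The call was lost on leaving out any of the 6 libraries (adjusted p = 0.0632 and 0.0913 without day 1 replicate 2 or 3, 0.0507 and 0.0515 without day 4 replicate 1 or 2, and 0.141 and 0.109 without day 7 replicate 1 or 2). With a pseudocount of 0.1 the log2 change was -1.89 and the call held (limma adjusted p = 0.0323). Quantile normalization (-0.72, limma adjusted p = 0.057) and the replicate block (-0.67) ended the call.

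Between day 4 and day 7, 8 of the 10 markers had both day 7 libraries below both day 4 libraries, and 1, Ecm1, had both above. Over all tested genes 33.9% lay below and 18.8% above in this way, 52.7% in all. Only Rgs5 passed the adjusted threshold, in a comparison where limma called 0.466% of tested genes, 0.16% lower. Without adjustment 7 markers had a p under 0.05, all lower, against 11.9% of tested genes in either direction and 7.74% lower. The marker median was -0.55, against -0.05 over all genes. Between day 1 and day 7, limma called 1 marker higher (Des) and 3 lower (Rgs5, Hgf and Vipr1), against 24.7% and 16.8% of tested genes (41.4% in either direction). Their median was -0.17 and that of all genes 0.04. Without adjustment 5 markers had a p under 0.05, against 51.5% of tested genes. The day 1 and day 7 libraries did not overlap for 7 markers, 5 lower and 2 higher on day 7, against 33% and 39.3% of tested genes (72.2% in all). Without day 7 replicate 1 or 2, Des was the 1 marker still called, and without day 4 replicate 1 or 2 the calls were Des and Rgs5. The moderated F test over the 3 days, also by limma, called 6 markers (Reln, Des, Rgs5, Hgf, Cygb and Pth1r), against 37.2% of tested genes, and 3 without day 4 replicate 1 or 2.

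**Figure D2:**
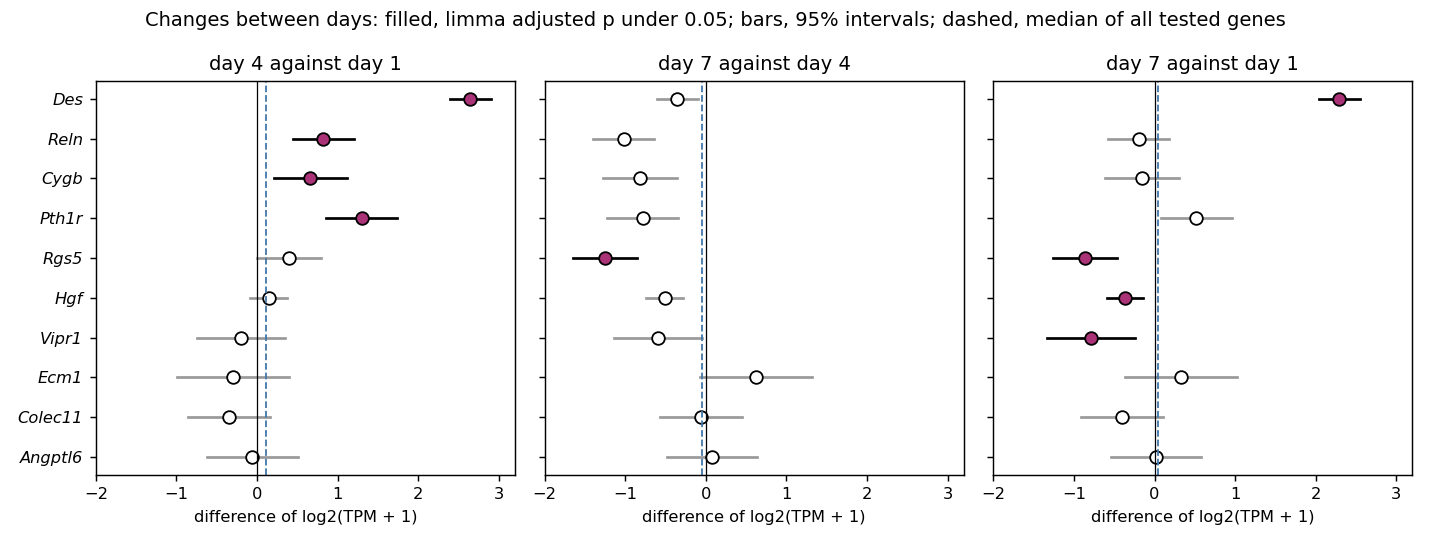
Differences of log2(TPM + 1) between days for each marker, with 95% intervals from the limma fit (horizontal axes). Filled points passed an adjusted p of 0.05, and the dashed line is the median of all tested genes. Des lies far to the right in both comparisons with day 1, and from day 4 to day 7 most markers lie left of 0 though Rgs5 alone passed.

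Ecm1, Colec11 and Angptl6 were called in no comparison. ECM1 is a secreted matrix glycoprotein that in mouse liver keeps latent TGF-beta inactive. Ecm1 had 44.2 and 78.3 TPM on day 1, 46.8 and 48.8 TPM on day 4, and 62.1 and 88.5 TPM on day 7. The day 1 libraries bracketed both day 4 libraries, and day 7 lay above day 4. Day 4 against day 1 gave -0.30 (95% interval -0.99 to 0.40, limma adjusted p = 0.447), and its sign turned on a single day 1 library. Dropping day 1 replicate 3 turned it to 0.11 with adjusted p = 0.708, and dropping replicate 2 of that day gave -0.70 with adjusted p = 0.0377. Between days 1 and 7 Ecm1 differed by 0.33 (95% interval -0.37 to 1.02, limma adjusted p = 0.389). That difference became 0.73 when day 1 replicate 3 was dropped, with adjusted p = 0.0411, and -0.0786 when replicate 2 was. Between days 4 and 7 it was 0.62 (95% interval -0.08 to 1.32, limma adjusted p = 0.487).

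Colec11 encodes a collectin, a soluble lectin that starts the lectin pathway of complement. It had 5.06 and 3.30 TPM on day 1, 2.89 and 3.12 TPM on day 4, and 2.87 and 2.82 TPM on day 7. Both day 1 libraries were above the others, by little for replicate 3. Between days 1 and 7 Colec11 differed by -0.41 (95% interval -0.92 to 0.10, limma adjusted p = 0.163), which passed without day 1 replicate 3 (-0.66, adjusted p = 0.0357) and after rescaling without the predicted models (-0.71, adjusted p = 0.0227). The rescaled value for day 4 against day 1 also passed (-0.65, adjusted p = 0.0354), where the deposited values gave -0.35 (adjusted p = 0.23).

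Angptl6 encodes a secreted angiopoietin-like protein. It had 2.96 and 1.96 TPM on day 1, 1.91 and 2.72 TPM on day 4, and 2.28 and 2.68 TPM on day 7. All days overlapped. The intervals of its log2 differences ran from -0.62 to 0.50 for day 4 against day 1 and from -0.54 to 0.58 for day 7 against day 1, so changes within those bounds are not excluded. Its exons share 265 bases with A230050P20Rik on the opposite strand, which had 8.98 to 20.7 TPM. The use of strand in quantification is not given in the sources used here, so reads of the 2 genes may have been mixed. Cygb and Pth1r share 201 and 95 exon bases with the opposite-strand genes Prcd and Myl3, whose highest TPM were 0.571 and 0.733.

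Ratios within a library do not depend on how the libraries were scaled. Desmin was taken as the denominator after its values had been seen. The Reln to Des ratio was 1.55 and 2.06 on day 1, 0.468 and 0.453 on day 4, and 0.282 and 0.274 on day 7. The Rgs5 to Des ratio was 1.14 and 0.922, then 0.197 and 0.196, then 0.0932 and 0.0859. Both ratios separated all 3 days in the same order. The Hgf to Des ratio went from 10.1 and 9.81 to 1.5 and 1.6, then 1.38 and 1.4. The Cygb to Des ratio went from 0.178 and 0.19 to 0.0564 and 0.052, then 0.0264 and 0.0277. The ratios of Ecm1, Colec11 and Angptl6 were higher on day 7 than on day 4 in both libraries. Ecm1 to Des was 7.08 and 12.8 on day 1, 1.03 and 1.14 on day 4, and 1.81 and 2.59 on day 7. Colec11 to Des was 0.81 and 0.537, then 0.0638 and 0.0729, then 0.0837 and 0.0826. Angptl6 to Des was 0.474 and 0.319, then 0.0422 and 0.0635, then 0.0664 and 0.0783. A ratio shows unequal change and not which of its genes moved.

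**Figure D3:**
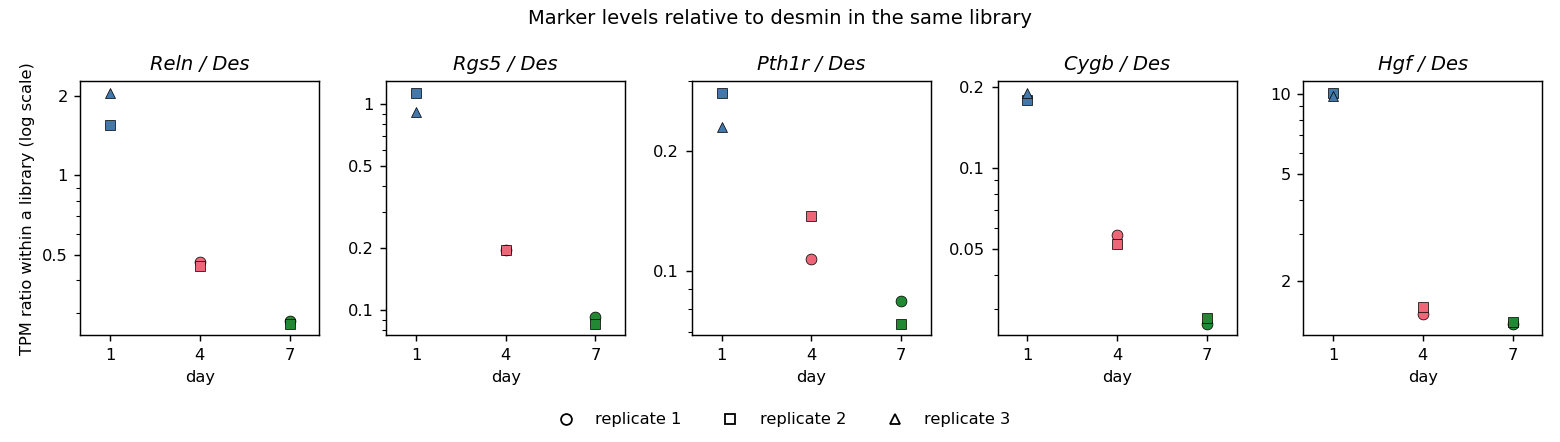
TPM of 5 markers divided by TPM of Des in the same library (vertical log axes) on days 1, 4 and 7. Each point is a library. Every ratio shown is highest on day 1, and those of Reln, Rgs5, Pth1r and Cygb are lower on day 7 than on day 4 in both libraries.

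Genes that work with the markers were read from lists of ligands, receptors, adaptors and relatives. Shares of called genes in these lists are to be read against those of all tested genes, 25% higher and 11.6% lower on day 4 and 24.7% and 16.8% by day 7. Nothing particular to a list is read from its count. Among 11 tested genes of the reelin pathway, 4 rose and 1 fell on day 4 (median -0.06), and 2 rose and 2 fell by day 7 against day 1. The reelin receptor gene Vldlr rose from 0.178 ± 0.083 TPM on day 1 to 4.33 ± 0.71 on day 4 and 8.91 ± 0.47 on day 7 (log2 change to day 7 3.07, limma adjusted p = 0.000103). Vldlr was thus highest on day 7, and Reln on day 4. Without day 4 replicate 1 or 2, 1 gene of the pathway rose on day 4, and without the predicted models 2 rose and 4 fell. Itgb1, the integrin beta1 chain, had 344 ± 13 TPM on day 1 and 635 ± 29 on day 7 (adjusted p = 0.00269). The kinase genes Fyn and Src fell by 0.67 and 0.56 on the log2 scale by day 7 (adjusted p = 0.0113 and 0.0212), calls lost without day 7 replicate 1 (0.0787 and 0.0746) or replicate 2 (0.0741 and 0.131). Dab1, the adaptor of the neuronal reelin pathway, was below 0.04 TPM in every library and was not tested.

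Among 11 tested genes of HGF activation and signalling, 4 rose and 2 fell on day 4 (median 0.12), and 4 rose and 3 fell by day 7. Without day 4 replicate 1 or 2, 2 rose on day 4. The HGF receptor gene Met, named although it lies outside the naming rule, was 13.8 ± 0.44 TPM on day 1, 7.47 ± 0.07 on day 4 and 8.96 ± 0.82 on day 7. Its fall to day 4 was -0.80 on the log2 scale (limma adjusted p = 0.00578, or 0.0517 without day 4 replicate 2). The Hgf to Met ratio within a library was 4.48 to 4.51 on day 1, 9.04 to 9.24 on day 4 and 5.04 to 5.65 on day 7. Plat, a plasminogen activator, rose from 3.69 ± 0.46 to 11.1 ± 0.02 TPM (adjusted p = 0.000925), and the HGF activation inhibitor gene Spint2 from 3.77 ± 1.0 to 9.69 ± 0.63 TPM (adjusted p = 0.00485). Sdc1, a heparan sulphate proteoglycan, reached 17.8 ± 0.90 TPM on day 7 from 5.97 ± 2.0 on day 1 (adjusted p = 0.00332), and the adaptor gene Gab1 fell from 18.3 ± 4.6 to 7.79 ± 0.52 TPM (adjusted p = 0.0054, or 0.0515 without day 7 replicate 2).

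The ligands of PTH1R and VIPR1 were nearly silent. Pth and Pthlh were listed at 0 in all 6 libraries, and Vip and Adcyap1 stayed below 0.5 TPM. Of 10 tested genes of this signalling list, 3 rose and 1 fell on day 4 (median 0.36), but none rose without day 4 replicate 1 or 2. Ramp3, a receptor activity modifier, fell from 7.34 ± 1.1 to 0.979 ± 0.32 TPM (limma adjusted p = 0.00117) and was 0.594 ± 0.20 TPM on day 7. The PACAP receptor gene Adcyap1r1 had 0.665 ± 0.044 TPM on day 1, 2.31 ± 0.002 on day 4 and 2.20 ± 0.30 on day 7. Its later means lay above day 1, where those of Vipr1 lay below. The day 4 call of Adcyap1r1 (adjusted p = 0.00949) was lost without day 4 replicate 1 or 2 (0.0608 and 0.0627), and that for day 7 (0.0103) without day 7 replicate 2 (0.0748). Ramp1 had 0.365 ± 0.19 and 1.93 ± 0.24 TPM on days 1 and 4 (adjusted p = 0.0128, or 0.0802 and 0.057 without day 4 replicate 1 or 2). The Gs subunit gene Gnas had 296 ± 35 and 436 ± 3.0 TPM (adjusted p = 0.0223, or 0.144 without either day 4 library, and 0.318 without the predicted models).

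Some relatives of RGS5 rose. Of 5 tested genes of the R4 group of RGS proteins, 3 rose on day 4 and none fell (median 1.01), and the same 3 were called by day 7. Rgs1 and Rgs3 were not called (log2 changes to day 4 of -0.04 and 0.37, limma adjusted p = 0.891 and 0.106). Rescaled without the predicted models, 3 of the list were called higher and 1, Rgs1, lower on both later days (adjusted p = 0.0491 and 0.00582), and without day 1 replicate 3 Rgs1 was also called lower on both (0.0313 and 0.00244). Rgs4 rose from 0.894 ± 0.29 to 8.45 ± 1.6 TPM and had 9.56 ± 0.03 TPM on day 7 (limma adjusted p = 0.000275 for day 7 against day 1). Rgs16 rose from 2.31 ± 0.76 to 11 ± 0.43 TPM, and Rgs2 from 44.4 ± 5.3 to 89.7 ± 0.69 TPM. The Rgs5 to Rgs4 ratio was 6.52 and 8.16 on day 1, 1.22 and 0.876 on day 4, and 0.335 and 0.306 on day 7, so the more abundant of the pair changed between the first and the last day.

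In the lectin pathway, 3 of 5 tested genes rose and 1 fell on day 4 (median 1.92). Masp1, a protease that binds collectins, rose from 15.4 ± 0.05 to 101 ± 3.3 TPM (limma adjusted p = 2.77e-05), Serping1, the C1 inhibitor gene, from 8.58 ± 1.3 to 46.0 ± 0.32 TPM, and the scavenger collectin gene Colec12 from 21.6 ± 3.3 to 83.7 ± 0.16 TPM. Colec10, the gene of the lectin that pairs with COLEC11, fell from 1.86 ± 0.62 to 0.352 ± 0.037 TPM (adjusted p = 0.0189, or 0.0544 without day 1 replicate 2, 0.0878 and 0.0811 without day 4 replicate 1 or 2). Among angiopoietin-like relatives, Angptl7 rose from 1.31 ± 0.27 to 31.6 ± 0.28 TPM (adjusted p = 2.7e-05) and Angptl4 from 30.3 ± 4.8 to 103 ± 3.5 TPM. Angptl2 had 4.43 ± 0.02 and 7.46 ± 0.37 TPM (adjusted p = 0.0157, or 0.0805 and 0.112 without day 4 replicate 1 or 2).

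Filament genes near desmin rose in part. Of 7 tested, 3 rose on day 4 and 5 by day 7, and none fell (medians 0.39 and 0.54). Day 7 calls numbered 3 without day 4 replicate 1 or 2 or without the predicted models, and 2 without day 7 replicate 1 or 2. Cryab, a chaperone of desmin, rose from 22.3 ± 1.5 to 99.2 ± 4.3 TPM (limma adjusted p = 7.55e-05), and Nes, which encodes the filament protein nestin, from 27.8 ± 1.2 to 73.2 ± 3.1 TPM. Synm, whose product synemin assembles with desmin, had 0.607 ± 0.31 and 2.81 ± 0.16 TPM (adjusted p = 0.0074, or 0.0545 without day 4 replicate 2). Vim, the vimentin gene, was far more abundant than Des, with 661 ± 22 TPM on day 1 and 960 ± 37 on day 7 (adjusted p = 0.02, or 0.112 and 0.145 without day 7 replicate 1 or 2 and 0.0798 and 0.0799 without day 4 replicate 1 or 2). The cytochrome b5 reductase gene Cyb5r3, whose product reduces cytoglobin, had 74.4 ± 3.7 and 103 ± 0.02 TPM on days 1 and 4 (adjusted p = 0.0137, or 0.473 without the predicted models and 0.108 and 0.112 without day 4 replicate 1 or 2). Of the 3 tested genes of that list 2 rose, the other being Cyb5b, and neither passed without the predicted models.

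**Figure D4:**
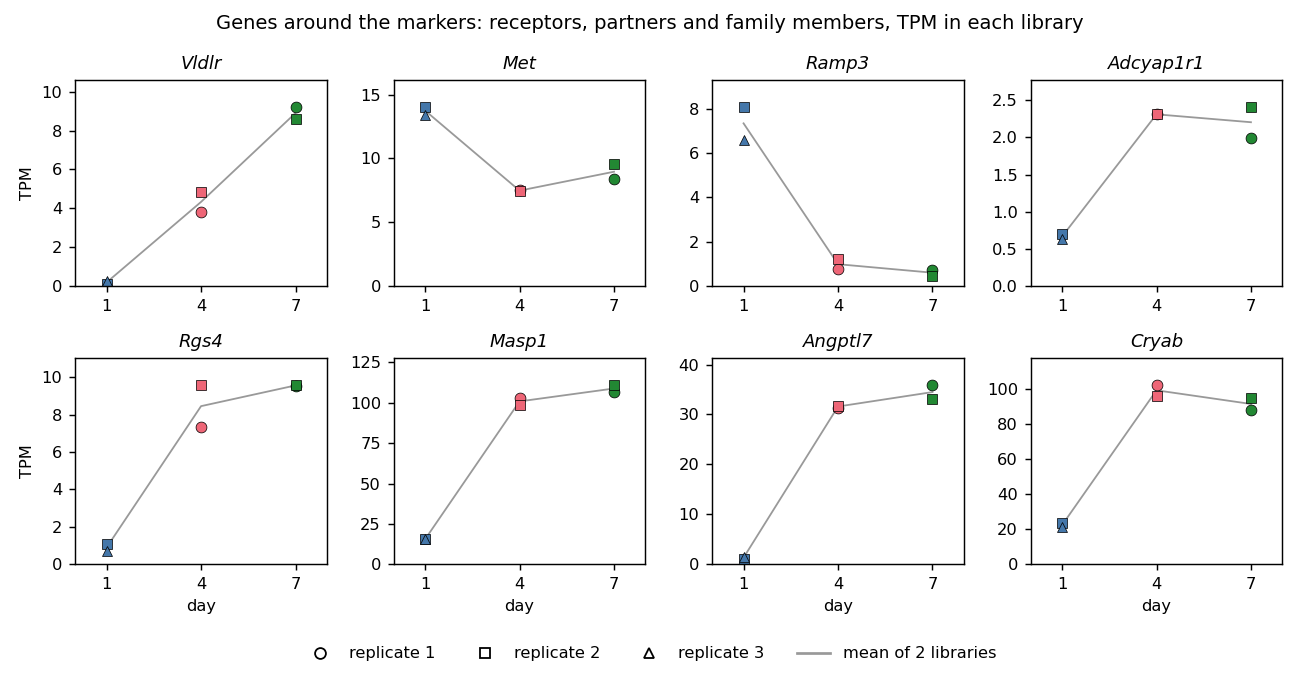
TPM in each library (vertical axes, from 0) on days 1, 4 and 7 for 8 genes around the markers, with grey lines joining the means of 2 libraries. Vldlr, Rgs4, Masp1, Angptl7, Cryab and Adcyap1r1 are higher on both later days than on day 1, whereas Met and Ramp3 are lower.

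Of 26 tested other genes of stellate identity, 17 rose and 3 fell on day 4 (median 0.93), and 16 rose and 5 fell by day 7 (median 0.96), against medians of 0.11 and 0.04 over all genes, of which 25% and 24.7% were called higher and 11.6% and 16.8% lower. Rescaled without the predicted models, 16 rose and 3 fell on day 4, and 13 rose and 7 fell by day 7. The summed TPM of the list was 2764.3 and 2147.8 on day 1, 2047.3 and 2099.8 on day 4, and 1715.4 and 1693.6 on day 7. The proteoglycan genes rose, Prelp from 1.41 ± 0.07 to 17.8 ± 0.21 TPM and Dcn from 110 ± 31 to 620 ± 11 TPM. The endothelin receptor gene Ednrb fell by 3.54 on the log2 scale. Of 9 tested mural cell genes, 6 rose and 1 fell on day 4, and the 4 with the largest changes were the contractile or adhesion genes Cnn1, Myh11, Mylk and Mcam. Abcc9 and Kcnj8, whose products form the pericyte potassium channel, are named after their values were seen. Abcc9 had means of 5.42 ± 0.08, 8.71 ± 1.1 and 7.01 ± 0.30 TPM over the 3 days. Its day 4 call (limma adjusted p = 0.0239) was lost without day 4 replicate 1 or 2 (0.0698 and 0.161) or day 7 replicate 1 or 2 (0.059 and 0.0593). Kcnj8 had 42.0 ± 1.8, 37.4 ± 3.0 and 31.1 ± 1.7 TPM. Its day 7 call against day 1 (-0.43, limma adjusted p = 0.0258) was lost without day 4 replicate 1 or 2 (0.0585 and 0.059) or day 7 replicate 1 or 2 (0.0924 and 0.147). Other pericyte genes (Notch3, Cspg4 and Higd1b) stayed below 0.7 TPM. Of 5 tested genes of vein-associated stellate cells 4 rose and none fell on both later days, with Spon2 the largest.

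Markers of other cells moved beside these genes. By day 4, 11 of 15 macrophage markers rose and 1 fell, and 6 of 8 tested mesothelial markers rose. Of 6 tested portal fibroblast markers 3 rose and 1, Thy1, fell, and 6 of 15 endothelial markers rose and 2 fell. In the same comparison 7 of 8 tested hepatocyte and 4 of 7 tested lymphocyte markers fell. Rescaled without the predicted models, 10 macrophage markers rose and 2 fell, 5 mesothelial markers rose, and 5 endothelial markers rose and 6 fell. The portal fibroblast, hepatocyte and lymphocyte counts stayed the same. Leaving out day 4 replicate 1 or 2 left 5 or 6 macrophage markers higher, and 4 or 2 hepatocyte markers lower. From day 4 to day 7, where most of the 10 markers were lower, macrophage markers summed to 27444 to 27495 TPM and then 26433 to 28760 TPM, endothelial ones to 2605.7 to 2768.5 and then 2460.1 to 2529.3 TPM, mesothelial ones to 68.4 to 74.9 and then 87.3 to 119 TPM, and lymphocyte ones to 29.3 to 29.6 and then 7.74 to 8.55 TPM. Portal fibroblast sums were 65.3 to 71.1 and then 126.7 to 130.2 TPM, and cholangiocyte sums 6.36 to 6.94 and then 12.7 to 13.2 TPM. The portal fibroblast sum does not stand for its list as a whole. Of its 6 tested genes only Fbln2 was called higher between these days (log2 change 1.34), and the list median was -0.0078. From day 4 to day 7 the lymphocyte, endothelial, hepatocyte and neutrophil sums were thus lower and the mesothelial, portal fibroblast and cholangiocyte sums higher in both libraries, and their part in the result was not tested.

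**Figure D5:**
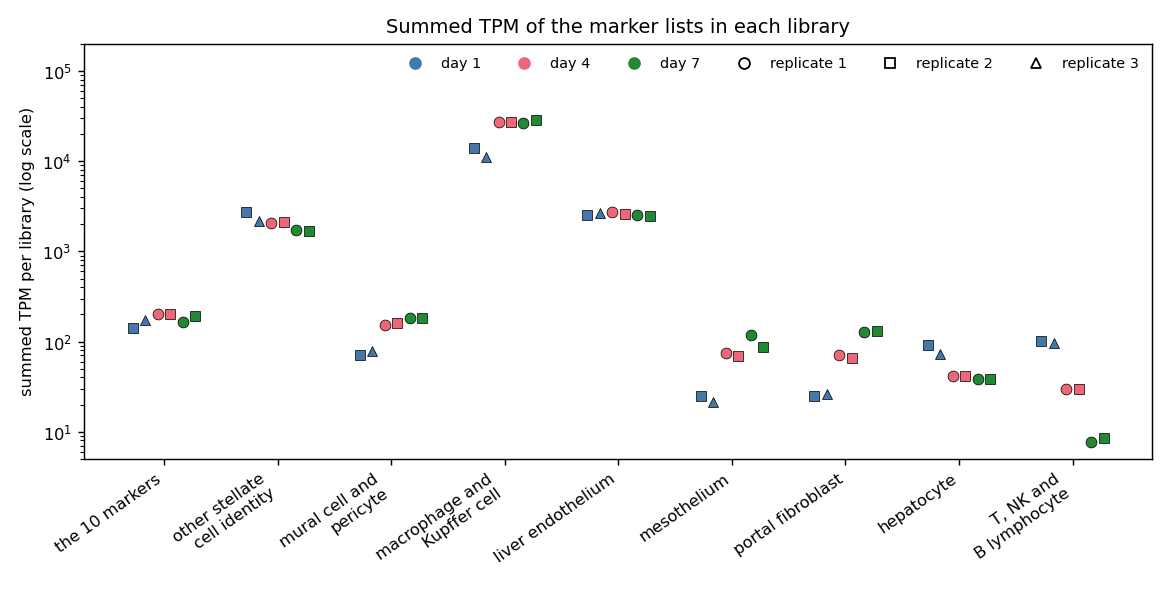
Summed TPM of each marker list in each library (vertical log axis), coloured by day. Macrophage and Kupffer cell markers exceed every other list in all libraries, lymphocyte and hepatocyte sums are highest on day 1, and mesothelial and portal fibroblast sums are lowest on day 1.

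For each marker that passed the F test, the named gene nearest to it over the 6 libraries was found as the smallest Euclidean distance between mean-centred log2(TPM + 1) values. It was St6galnac3 for Reln (distance 0.214), Art3 for Des (0.227), Wnt2 for Rgs5 (0.233), Vasp for Hgf (0.093), Samd5 for Cygb (0.149) and Lum for Pth1r (0.159). Lum had 1.74 to 2.35 TPM on day 1, 6.59 to 7.04 on day 4 and 3.29 to 3.95 on day 7. Wnt2 had 11.5 to 12.8, 14.9 and 5.14 to 6.66 TPM on the same days. These are descriptions over 6 libraries on 3 days.

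In GENCODE release M21 on GRCm38, Reln (ENSMUSG00000042453.14) lies on chromosome 5 from 21884454 to 22344702 on the minus strand, a span of 460249 bases, the longest of the 10. Des (ENSMUSG00000026208.9) lies on chromosome 1 from 75360329 to 75368579 and Rgs5 (ENSMUSG00000026678.10) on the same chromosome from 169655501 to 169695813, both on the plus strand. Hgf (ENSMUSG00000028864.7) lies on chromosome 5 from 16553495 to 16620152, plus strand. Vipr1 (121642716 to 121672954), Pth1r (110722085 to 110747145) and Angptl6 (20873808 to 20879727) share chromosome 9. Ecm1 lies on chromosome 3 from 95734147 to 95739569, Cygb on chromosome 11 from 116645595 to 116654313 and Colec11 on chromosome 12 from 28594173 to 28623377. All 10 are annotated as protein-coding.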

How the data were processed

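Gene expression was measured by RNA sequencing of ribosome-depleted total RNA in 6 libraries of primary mouse hepatic stellate cells. The authors deposited TPM for each symbol. The submitters' processing notes name StringTie 1.3.3b, HISAT2 2.0.5 and Trimmomatic, and the builds GRCm38 and mm10. What each tool did, the annotation and the strand setting are not given here. TPM keeps no depth, so the depth is unknown and no counting interval was computed.

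Genes reaching 1 TPM in 2 or more libraries were tested as log2(TPM + 1), which understates the change of low genes, with limma 3.58.1 (R 4.3.3): day as a factor, trend and robust moderated variances, and 3 residual degrees of freedom over all 6 libraries. P-values were adjusted by Benjamini-Hochberg over all tested genes, and an adjusted p under 0.05 was a call. The fit was tested on simulated data. Named genes of each list were at most 4 with the largest called change from day 1, or the 2 most abundant where none was called. The nearest gene excluded predicted models. The markers and lists were chosen with earlier results of these data known. The alternatives changed the pseudocount, filter, scaling, variance model, replicate block and samples, and left out each library. Tests for counts were not run, since the table used holds TPM. The labels name no batch. Symbols matched 1 GENCODE M21 gene in 99.7% of cases, and promoters came from RefSeq on GRCm38.p6. Some genes of the lists are not reported here. Figures used matplotlib 3.10.9 (Python 3.11.15).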

Additional observations from a re-analysis of the deposited data

How the results depend on the processing

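Of 465 values of the markers under the alternatives, 396 kept their direction and their side of the threshold, 38 lost a call, 15 gained one and 16 changed sign. The rise of Des and the day 4 rise of Pth1r held under each one that tested them. Every sign change was in a value not called in the reported fit, and the causes were not tested. For day 4 against day 1, Hgf was -0.0037 after median-ratio scaling and -0.22 when rescaled without predicted models, and Ecm1 was 0.25 with the replicate block. For day 7 against day 1, Ecm1 was -0.0335 when rescaled, and Angptl6 was -0.0344 after median-ratio scaling, -0.0809 after quantile normalization, -0.25 when rescaled and -0.0613 with the block. Leaving out a library gave Ecm1 -0.70 to 0.11 and -0.0786 to 0.73 in those comparisons, and Angptl6 -0.268 to 0.15, -0.19 to 0.23 and, for day 7 against day 4, -0.0982 to 0.25.

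Markers called by limma between days 4 and 7 numbered 0 with pseudocounts of 0.1 or 0.5, no filter, median-ratio scaling, quantile normalization or the replicate block (7 had an unadjusted p under 0.05 in the reported fit), and 3 in a fit of only those days. All genes called there numbered 67, then 4 with no filter, 37 after quantile normalization, 31 with the block and 609 in the fit of those days. A filter of 5 TPM left 5 markers and 2 calls on day 4. Without each library in turn, marker calls ran from 2 to 5 (day 4 against day 1), 0 to 3 (day 7 against day 4), 1 to 5 (day 7 against day 1) and 3 to 7 (F test), and all calls from 2196 to 7602, 0 to 546 and 2684 to 7979. Such fits leave a day with 1 library, assumed to vary like the others. As deposited, 3590 genes were higher and 1667 lower on day 4, and when rescaled without predicted models 2123 and 3423. The median of all genes moved from 0.11 to -0.19. For day 7 against day 1 the counts were 3546 and 2410, then 2227 and 4426 (median 0.04, then -0.26). Replicate numbers were treated as names only in the reported fit. Same-numbered libraries of days 4 and 7 deviated with a correlation of 0.00423. That value leaves out day 1 and cannot show whether a number stands for a shared animal or culture. Depth is unknown, so what it limits could not be computed.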
